A study of Homo sapiens with 6 samples.

Results

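The 8 genes described here encode the elongation kinase P-TEFb and the particle that holds it inactive. They were chosen by name, as the rows called HEXIM1, HEXIM2, RN7SK, LARP7, MEPCE, CDK9, CCNT1 and CCNT2 among the 14538 genes of the authors' deposited table. All 8 were listed, each with 1 row and a mean level of at least 536. The RNA came from HEK293T cells, derived from embryonic kidney, whose INTS8 carries a miniAID tag on every copy (labelled INTS8-AID, homozygous miniAID). INTS8 belongs to Integrator, which cuts nascent RNA and stops RNA polymerase II, both at genes for small nuclear RNAs and near the start of many coding genes. The tag is a degron, through which the plant hormone auxin directs destruction of the tagged protein. The 3 libraries of the auxin group came from cells given 100 µM auxin for 48 h, and the 3 libraries of the other group from cells of the same line without auxin. Cells without the tag were not analysed here, so effects of auxin itself and of INTS8 loss cannot be told apart.

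P-TEFb is a kinase made of CDK9 and a cyclin T, which is CCNT1 or CCNT2. It phosphorylates RNA polymerase II and the pausing factors NELF and DSIF, and so releases polymerase paused near the start of genes into elongation. Much of P-TEFb is kept inactive on 7SK, an abundant small noncoding RNA made by RNA polymerase III from RN7SK. MEPCE caps the 5′ end of 7SK, LARP7 holds its 3′ end, and HEXIM1 or HEXIM2 binds the RNA and blocks CDK9. Synthesis of HEXIM1 is known to follow the release of P-TEFb from 7SK.

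The table gives 1 comparison of the groups and no value per library, so the spread between libraries can be read only through its p-values. Whether each library came from its own culture is not in the labels, and the spread behind the p-values may be technical. Fold changes are given as auxin over no auxin. The header leaves the numerator unnamed, and this reading rests on the usual convention of treated over untreated. If it is wrong, all directions below are turned round. A fruit fly genome build is named beside the human one, and whether a fly spike-in set the scale of levels and fold changes is not known. A further column of log2 expression names no group. Over 12195 genes (mean level at least 100) it differed by at most 0.0165 from the log2 of the numerator group's level per kb, as derived from the mean level, the fold change and the transcript length. Its median distance from the same quantity for the other group was 0.261. That column therefore holds the level of whichever group is the numerator, and it does not name it either. Intervals below are 95% intervals from a standard error derived from each p-value, and a gene is said to have risen or fallen where the authors' adjusted p was under 0.05. Groups were 3 libraries each, and fewer cells and less RNA per cell cannot be told apart.

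The mRNA of INTS8 was at 1.28-fold per the authors' deposited table, which does not check the labels because the degron acts on the protein. Of the marker genes of kidney lineage, 6 of 7 were listed, with a summed derived level of 7189 without and 7129 with auxin, most of it from SALL1 and SIX2, and PAX8 was not listed. Of these 6 kidney genes, named here with their values known, LHX1 rose 5.39-fold, EYA1 rose 1.30-fold and PAX2 fell to 0.696-fold per the authors' deposited table. Of 8 blood markers 1 was listed, HBB at a mean level of 1 per the authors' deposited table, and of 6 fibroblast markers 0 were listed. Of 8 neuronal markers 6 were listed and all 6 rose, with a summed derived level of 3255 without and 25339 with auxin. The neuronal genes RBFOX3 and SNAP25 were not listed. The part of this change in the results below was not tested.

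Sequences are shown for the RNA that assembles the particle and for the start regions of the gene that rose most, its neighbouring paralog and the gene that fell. The 7SK RNA is annotated in GENCODE 29 at chr6:52995621-52995948 in hg38, on the plus strand, as 1 exon of 328 bases. Its bases 1 to 120 are printed in the DNA letters of that transcript. Capitals mark GATC, written GAUC in RNA, the tetranucleotide through which HEXIM1 is known to recognise the 5′ hairpin. A search found 3 such sites, at bases 12 to 15, 41 to 44 and 63 to 66 counted from the 5′ end. All 3 lie in the 5′ part of the RNA.
7SK: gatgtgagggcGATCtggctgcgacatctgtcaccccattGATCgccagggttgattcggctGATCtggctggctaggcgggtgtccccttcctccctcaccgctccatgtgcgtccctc

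The start regions come from RefSeq, build GRCh38.p14, as 250 bases before to 50 after a gene start, and 7 of the 8 genes matched. For HEXIM1, HEXIM2 and CDK9 the region shown has the same start as the gene has per the authors' deposited table. They lie at chr17:45148225-45148524, chr17:45161625-45161924 and chr9:127785784-127786083, all on the plus strand. Capitals mark matches on either strand to the TATA box letters TATAA, the inverted or direct CCAAT box, the GC box letters GGGCGG, the E-box letters CACGTG, the AP-1 site letters TGANTCA and the cAMP response element letters TGACGTCA. None of these 6 motifs overlapped another in these 3 regions.
HEXIM1: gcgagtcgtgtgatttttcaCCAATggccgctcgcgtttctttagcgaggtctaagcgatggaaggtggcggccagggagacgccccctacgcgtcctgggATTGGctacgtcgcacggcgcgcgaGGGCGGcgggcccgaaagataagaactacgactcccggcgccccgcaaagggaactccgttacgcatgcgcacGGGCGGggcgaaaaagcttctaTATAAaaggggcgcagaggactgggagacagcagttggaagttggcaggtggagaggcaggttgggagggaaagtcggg
HEXIM2: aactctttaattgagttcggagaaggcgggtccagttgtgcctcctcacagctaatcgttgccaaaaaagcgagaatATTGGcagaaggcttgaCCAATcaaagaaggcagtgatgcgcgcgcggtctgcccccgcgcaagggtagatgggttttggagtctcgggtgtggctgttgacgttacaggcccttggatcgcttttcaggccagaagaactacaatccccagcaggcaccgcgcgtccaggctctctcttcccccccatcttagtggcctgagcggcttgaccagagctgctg
CDK9: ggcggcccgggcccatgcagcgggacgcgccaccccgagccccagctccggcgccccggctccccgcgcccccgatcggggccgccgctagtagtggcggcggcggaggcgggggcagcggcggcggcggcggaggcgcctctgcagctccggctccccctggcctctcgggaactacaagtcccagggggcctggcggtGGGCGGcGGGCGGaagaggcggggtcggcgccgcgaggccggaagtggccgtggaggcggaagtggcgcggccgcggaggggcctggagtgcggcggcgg
The HEXIM1 region held TATAA beginning 29 bases before the start, CCAAT at 230 and, on the other strand, at 149 bases before it, and GGGCGG at 124 and 51 bases before it. Of 35116 RefSeq start regions of the same length, 20.4% held TATAA anywhere, and 3.62% held it on the gene's strand beginning 35 to 24 bases before the start. The HEXIM2 region shown held CCAAT on either strand, at 156 and 173 bases before the start, and neither TATAA nor GGGCGG. A further RefSeq start of HEXIM2, 1701 bases upstream, has a region not shown here. That region held TATAA after its start and neither CCAAT nor GGGCGG. The CDK9 region held GGGCGG at 50 and 43 bases before the start, without TATAA or CCAAT, and 82% of its bases were G or C. CCAAT was held by 34.6% and GGGCGG by 45.0% of all the regions. The E-box, the AP-1 site and the cAMP response element were found in none of the 3 regions, and in 7.26%, 7.71% and 1.85% of all the regions, in that order. A match describes the letters alone, and no binding was measured.

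The inhibitors and the 7SK particle rose while the kinase fell. Of the 8 genes 5 rose, namely HEXIM1, HEXIM2, RN7SK, LARP7 and MEPCE, beside 27.8% of all 14538 listed genes, and 1 fell, CDK9, beside 28.9% of all listed genes. The cyclins CCNT1 and CCNT2 did not pass. Both inhibitors and all 3 core components of the 7SK particle were among the rises, and 0 of the 3 subunits of P-TEFb were. The median log2 fold change was 0.32 over the 8 genes and 0.00 over all listed genes. Rises of at least 1.5-fold were 2 of the 8, HEXIM1 and MEPCE, beside 13.2% of all listed genes, and falls to that limit were 0, beside 7.72%. Rises of at least 2-fold were 1 of the 8, HEXIM1, beside 7.88%, and falls 0, beside 1.36%, which is near the background.

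**Figure D1:**
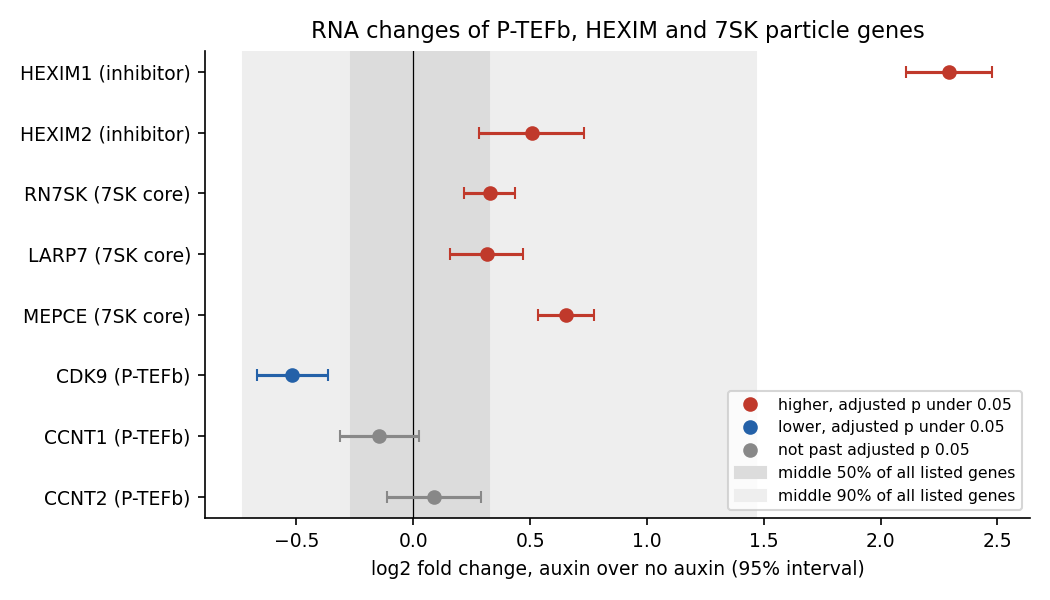
Log2 fold change of the 8 genes, auxin over no auxin, from the authors' deposited table, with 95% intervals derived from its p-values; red points rose, the blue point fell and grey points did not pass. HEXIM1 at 2.29 lies above the middle 90% of all listed genes, which runs from -0.73 to 1.47, and the other 7 lie inside it.

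HEXIM1 inhibits P-TEFb when bound to 7SK and is encoded by a gene without introns. It is annotated in the table at chr17:45148475-45152101, in hg38 on the plus strand, and GENCODE 29 gives it 1 exon. Its mean level was 11458 per the authors' deposited table. Derived from that mean and the fold change, the level was 3883 in the group without auxin and 19033 in the group with auxin. The rise was 4.90-fold (log2 fold change 2.29, interval 2.11 to 2.48, adjusted p 4.81e-128) per the authors' deposited table. Among all listed genes 315, HEXIM1 included, had a fold change at least as large. Few of those had as high a mean level. Of the 472 genes at or above that mean level, 4 had a fold change as large, namely HEXIM1 and, named after their values were seen, FSCN1, AHNAK2 and PCDH9 at 15.3, 11.4 and 9.61-fold per the authors' deposited table. The mean level covers both groups, so the rise itself helped HEXIM1 to reach it, from 3883 without auxin.

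HEXIM2, the paralog of HEXIM1, binds 7SK and inhibits P-TEFb in the same manner. Its gene follows HEXIM1 on the same strand, at chr17:45161875-45170035, and has up to 4 exons in GENCODE 29. The mean level of 536 was the lowest of the 8 genes per the authors' deposited table, with derived levels of 443 without and 629 with auxin. The rise was 1.42-fold (log2 fold change 0.51, interval 0.28 to 0.73, adjusted p 2.91e-05) per the authors' deposited table. Its log2 fold change was smaller than that of HEXIM1 by 1.79 (interval 1.496 to 2.077, adjusted p 7.78e-33, Wald test). This and the other comparisons between genes are Wald tests of the difference of log2 fold changes, adjusted by Benjamini-Hochberg over all 28 pairs of the 8 genes. They treat the fold changes of a pair as independent, although both come from the same 6 libraries.

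Per kb of transcript, HEXIM1 RNA stood at 3.48 times HEXIM2 RNA without auxin and at 12.001 times with auxin. Summed per kb, the RNAs of both inhibitors went from 1378 to 5685, a ratio of 4.12.

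RN7SK had the highest mean level of all listed genes, 603601, per the authors' deposited table. The derived levels were 535367 without and 671835 with auxin. It rose 1.25-fold (log2 fold change 0.33, interval 0.22 to 0.44, adjusted p 1.98e-08) per the authors' deposited table. RN7SK is typed there as snRNA. Of the 110 listed genes of that type, RN7SK included, 31 rose and 0 fell, beside 27.8% and 28.9% of all listed genes. 7SK made up 1.63% of the summed mean levels of all genes. GENCODE 29 holds 293 pseudogenes named RN7SKP, of which 0 were listed, so how reads shared with copies were treated is unknown. GENCODE 29 also places the model RF00100 on the same strand over RN7SK.

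LARP7 is the La-related protein that binds the 3′ end of 7SK and keeps the RNA stable. Its gene lies at chr4:112637126-112657592 on the plus strand, and GENCODE 29 places the MIR302 and MIR367 genes and the antisense gene AC106864.1 over it on the other strand. AC106864.1 is the 1 overlapping gene that is listed, although the authors' deposited table places it 35454 bases past LARP7. The mean level was 2414 per the authors' deposited table, and the derived levels were 2152 without and 2676 with auxin. It rose 1.24-fold (log2 fold change 0.31, interval 0.16 to 0.47, adjusted p 2.49e-04) per the authors' deposited table.

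MEPCE is the methyltransferase that caps the 5′ end of 7SK, and it stays bound to the particle. It lies at chr7:100429447-100434118 on the plus strand. Its mean level was 8109 per the authors' deposited table, and the derived levels were 6306 without and 9912 with auxin. The rise of 1.57-fold (log2 fold change 0.65, interval 0.53 to 0.77, adjusted p 1.47e-25) was the second largest of the 8 per the authors' deposited table. Of the 873 genes with at least its mean level, which its own rise also lifts, 39 had a fold change as large.

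The core of the particle did not move by one amount. The log2 fold change of MEPCE was above the others, by a difference of RN7SK minus MEPCE of -0.32 (interval -0.49 to -0.16, adjusted p 1.38e-04, Wald test) and of LARP7 minus MEPCE of -0.34 (interval -0.54 to -0.14, adjusted p 1.17e-03, Wald test). RN7SK and LARP7 differed by 0.01 (interval -0.18 to 0.20, adjusted p 0.892, Wald test). Their ratio of fold changes, RN7SK over LARP7, was 1.01 with an interval from 0.884 to 1.15. Per kb, MEPCE RNA stood at 2.62 times LARP7 RNA without auxin and at 3.31 times with auxin.

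CDK9 is the catalytic subunit of P-TEFb. It lies at chr9:127786034-127790792 on the plus strand and has up to 7 exons in GENCODE 29. The mean level was 2036 per the authors' deposited table, with derived levels of 2398 without and 1674 with auxin. It fell to 0.698-fold (log2 fold change -0.52, interval -0.67 to -0.37, adjusted p 1.13e-10) per the authors' deposited table. Of the 5046 genes with at least its mean level, which its own fall also lowers, 401 had a fold change as low or lower.

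In estimated fold change the cyclin partners stood between CDK9 and the particle, although CCNT2 was not shown to differ from RN7SK or LARP7. CCNT1, the main cyclin of P-TEFb, lies at chr12:48688458-48716998 on the minus strand. Its mean level was 4779 per the authors' deposited table, and the derived levels were 5019.8 without and 4538 with auxin. The fold change was 0.904 (log2 fold change -0.15, interval -0.32 to 0.02, adjusted p 0.142) per the authors' deposited table, which did not pass. CCNT2, the alternative cyclin, lies at chr2:134918825-134957017 on the plus strand. It had a mean level of 2082 per the authors' deposited table and derived levels of 2018 without and 2146 with auxin. Its fold change of 1.06 (log2 fold change 0.09, interval -0.11 to 0.29, adjusted p 0.476) did not pass per the authors' deposited table.

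The kinase differed from both cyclins. The difference of log2 fold change was -0.37 for CDK9 minus CCNT1 (interval -0.60 to -0.15, adjusted p 1.82e-03, Wald test) and -0.61 for CDK9 minus CCNT2 (interval -0.86 to -0.36, adjusted p 4.72e-06, Wald test). CCNT1 and CCNT2 were not shown to differ (CCNT1 minus CCNT2 -0.23, interval -0.50 to 0.03, adjusted p 0.0976, Wald test). Per kb, the summed RNA of both cyclins stood at 1.20 times that of CDK9 without auxin and at 1.66 times with auxin.

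**Figure D2:**
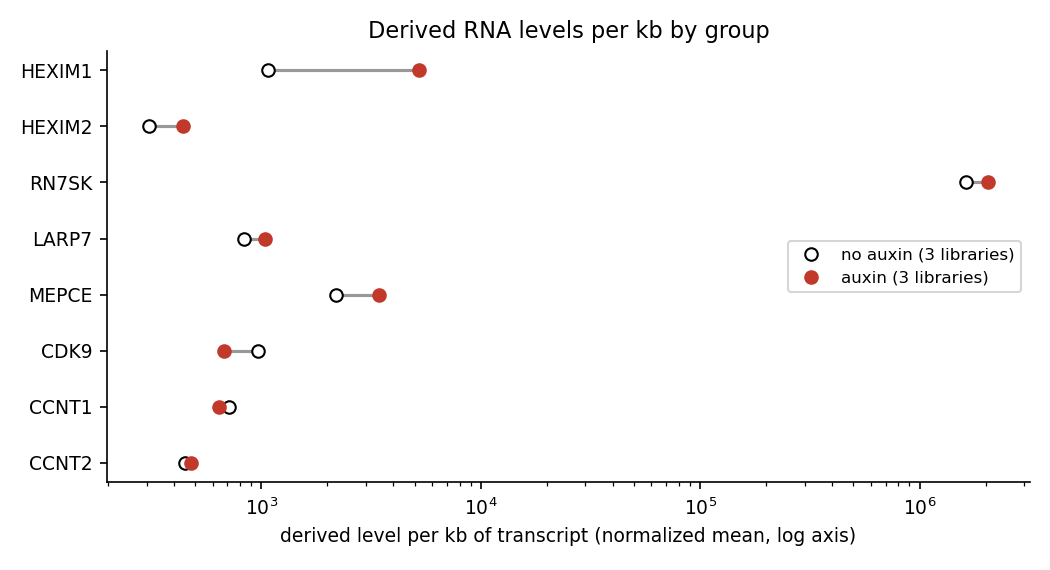
Derived level per kb of transcript for the 8 genes on a log axis, without auxin (open points) and with auxin (red points), each the mean of 3 libraries with no error because the table gives none per library. RN7SK lies near 1632218 and 2048276, and the 7 mRNAs lie between 308 and 5247.

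On the scale of level per kb, the order of the 8 genes without auxin was RN7SK, MEPCE, HEXIM1, CDK9, LARP7, CCNT1, CCNT2 and HEXIM2. The values were 1632218 for RN7SK, 2183 for MEPCE, 1071 for HEXIM1, 966 for CDK9, 834 for LARP7, 709 for CCNT1, 449 for CCNT2 and 308 for HEXIM2. With auxin HEXIM1 moved above MEPCE and CDK9 below LARP7. The values were then 2048276 for RN7SK, 5247 for HEXIM1, 3431 for MEPCE, 1037 for LARP7, 674 for CDK9, 641 for CCNT1, 478 for CCNT2 and 437 for HEXIM2. No spread over libraries is given for these levels, so neighbours in the order cannot be tested.

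The largest contrast within the group was between the inhibitor and the kinase it acts on. HEXIM1 RNA per kb was 1.11 times CDK9 RNA without auxin and 7.78 times with auxin. The ratio of their fold changes was 7.02 (interval 5.95 to 8.29, adjusted p 5.81e-116, Wald test). With HEXIM2 added, the inhibitor RNA per kb went from 1.43 to 8.43 times that of CDK9. The excess of 7SK over HEXIM1 RNA shrank, from 1524 to 390.3 times per kb. These are ratios of RNA, and protein was not measured.

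Of the 28 pairs, 21 differed at an adjusted p of 0.05. HEXIM1 differed from all 7 other genes and CDK9 from all 7. MEPCE differed from 6, the exception being HEXIM2. The 7 pairs that did not pass were HEXIM2 with RN7SK, LARP7 and MEPCE, RN7SK with LARP7, CCNT2 with RN7SK and LARP7, and CCNT1 with CCNT2. The closest to the threshold was RN7SK minus CCNT2 at 0.24 (interval 0.01 to 0.47, adjusted p 0.0523, Wald test).

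**Figure D3:**
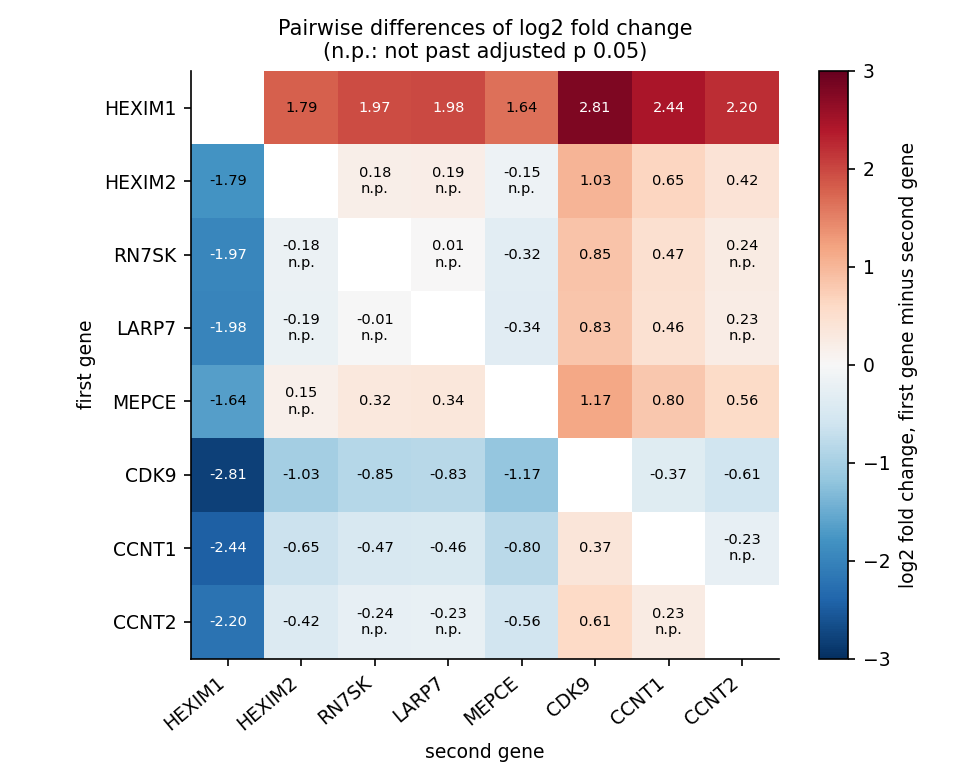
Difference of log2 fold change for each pair of the 8 genes, first gene (vertical axis) minus second gene (horizontal axis), with n.p. where the pair did not pass an adjusted p of 0.05. The HEXIM1 line runs from 1.64 against MEPCE to 2.81 against CDK9, and the CDK9 line is below 0 throughout.

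HEXIM1 and HEXIM2 are neighbours with 9773 bases between them per the authors' deposited table, and no other listed gene lies in that interval. ACBD4, which ends 4293 bases before HEXIM1 on the same strand, fell to 0.682-fold (adjusted p 7.59e-07) per the authors' deposited table. Farther upstream, and named after their values were seen, PLCD3, on the other strand, rose 1.13-fold (adjusted p 0.0196) and NMT1 fell to 0.702-fold (adjusted p 5.86e-20) per the authors' deposited table. On the far side of HEXIM2 the next listed gene, MAP3K14-AS1, lay 77918 bases away and was at 0.672-fold (adjusted p 0.0475, mean level 51) per the authors' deposited table. HEXIM1 and HEXIM2 thus rose by unlike amounts while the next listed gene on either side of the pair fell, and PLCD3 rose slightly. In GENCODE 29 the antisense gene AC138150.1, which is not listed, overlaps HEXIM1, and AC138150.2, also not listed, overlaps HEXIM2. The library kit keeps strand, but the sources used here do not say whether the counting used it.

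**Figure D4:**
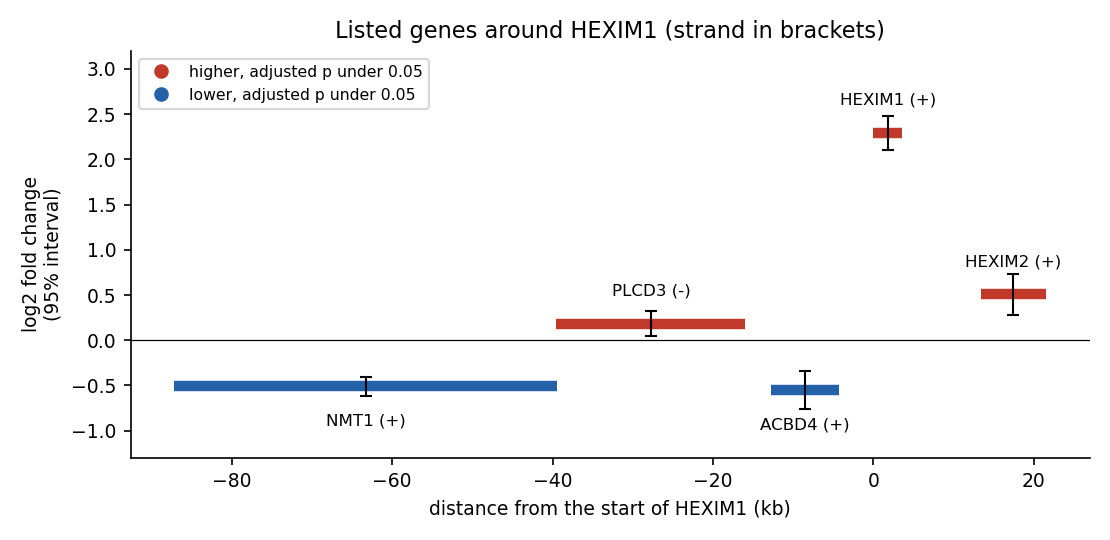
Log2 fold change with its 95% interval for the listed genes within 60 kb of HEXIM1, drawn over their extent in kb from the HEXIM1 start. HEXIM1 at 2.29, HEXIM2 at 0.51 and PLCD3 at 0.18 lie above 0, and ACBD4 at -0.55 and NMT1 at -0.51 lie below 0.

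Neighbours of the other 6 genes were at varied fold changes. GSTA4, a glutathione transferase that starts 336 bases from RN7SK in the opposite direction, fell to 0.663-fold (adjusted p 2.68e-10) per the authors' deposited table. ICK, on its other side, did not pass at 1.04-fold (adjusted p 0.635) per the authors' deposited table. ZGRF1, which starts 215 bases from LARP7 in the opposite direction, did not pass at 0.905-fold (adjusted p 0.211) per the authors' deposited table. Both listed neighbours of MEPCE, ZCWPW1 and AC092849.1, did not pass, at 1.15 and 1.26-fold with mean levels of 83 and 53 per the authors' deposited table. FPGS, 12065 bases past CDK9 on the same strand, fell as CDK9 did, to 0.744-fold (adjusted p 1.25e-05) per the authors' deposited table. SH2D3C, on the other side of CDK9, rose 2.38-fold (adjusted p 1.87e-03) from a mean level of only 28 per the authors' deposited table. KANSL2 beside CCNT1 stood at 0.994-fold and RAB3GAP1 beside CCNT2 at 1.02-fold, and neither passed per the authors' deposited table. ADCY6 and TMEM163, on their other sides at 49195 and 199824 bases, fell to 0.603 and 0.5002-fold per the authors' deposited table. AC106864.1, the antisense gene that overlaps LARP7 in GENCODE 29, had a mean level of 7 and did not pass per the authors' deposited table.

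Genes that work with P-TEFb and 7SK were taken as 8 lists by function. Of their 83 genes 69 were listed, and 22 rose and 16 fell, against 27.8% and 28.9% of all listed genes. The median log2 fold change over the 69 was 0.07, beside 0.00 over all listed genes. 

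The super elongation complex carries active P-TEFb to polymerase. Of its 9 genes 5 rose and 1 fell, beside 27.8% and 28.9% of all listed genes, with a median log2 fold change of 0.19. EAF2, an ELL-associated factor, rose 3.40-fold (adjusted p 9.57e-47) and the elongation factor ELL2 rose 2.36-fold (adjusted p 6.18e-38) per the authors' deposited table. The gene that fell, MLLT1 (ENL), was at 0.734-fold per the authors' deposited table and was named after its value was seen. Of 11 factors that recruit P-TEFb or free it from 7SK 1 rose, 6 fell and 4 did not pass, with a median of -0.13. The falls were small, and the lowest fold change was that of PPM1G. JMJD6, a dioxygenase linked to release of P-TEFb, rose 1.54-fold (adjusted p 6.02e-19) and the phosphatase PPM1G, which frees P-TEFb from 7SK, fell to 0.781-fold (adjusted p 8.98e-08) per the authors' deposited table.

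Substrates of P-TEFb were split, with 2 of 8 higher, 2 lower and a median of 0.00. Of all listed genes 27.8% were higher and 28.9% lower. POLR2A, the large subunit of RNA polymerase II, rose 1.63-fold (adjusted p 1.68e-47) and NELFB fell to 0.791-fold (adjusted p 1.09e-05) per the authors' deposited table. The other transcription kinases and their cyclins had 3 of 13 higher and 3 lower, with a median of -0.01. CDK7, the kinase of TFIIH, rose 1.71-fold (adjusted p 9.19e-22) and the cyclin CCNL2 fell to 0.753-fold (adjusted p 1.38e-06) per the authors' deposited table.

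Of 6 further proteins that bind 7SK particles, mostly hnRNPs, 1 rose and 1 fell, beside 27.8% and 28.9% of all listed genes. Their median was 0.02. HNRNPA1 was at 0.858-fold (adjusted p 2.98e-04) and the helicase DHX9 at 1.11-fold (adjusted p 0.0300) per the authors' deposited table. The relatives of LARP7 and MEPCE had 3 of 7 higher and 2 lower, with a median of -0.08. LARP1B and LARP6 rose 1.47 and 1.26-fold (adjusted p 3.40e-17 and 3.46e-03) per the authors' deposited table.

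Factors that transcribe 7SK rose in 6 of 10 cases and fell in 1, beside 27.8% and 28.9% of all listed genes. Their median was 0.23. SNAPC2, a subunit of the complex that binds small nuclear RNA promoters, rose 1.60-fold (adjusted p 1.42e-11), and the activator ZNF143 rose 1.31-fold (adjusted p 1.82e-05) per the authors' deposited table. SNAPC3, named after its value was seen, was the 1 that fell, at 0.802-fold per the authors' deposited table. Of 19 other transcripts of RNA polymerase III only 5 were listed, all of them U6 or U6atac genes, and 1 rose, with a median of 0.54. It was RNU6-2, at 1.54-fold (adjusted p 4.81e-03) and a mean level of 105 per the authors' deposited table, and which of the many U6 copies its reads came from is uncertain. The other 4 had fold changes from 1.15 to 1.47 and did not pass. Their mean levels were 31 for RNU6-1, 16 for RNU6-7, 26 for RNU6-9 and 221 for RNU6ATAC. The list's median of 0.54 is the value of RNU6-9.

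**Figure D5:**
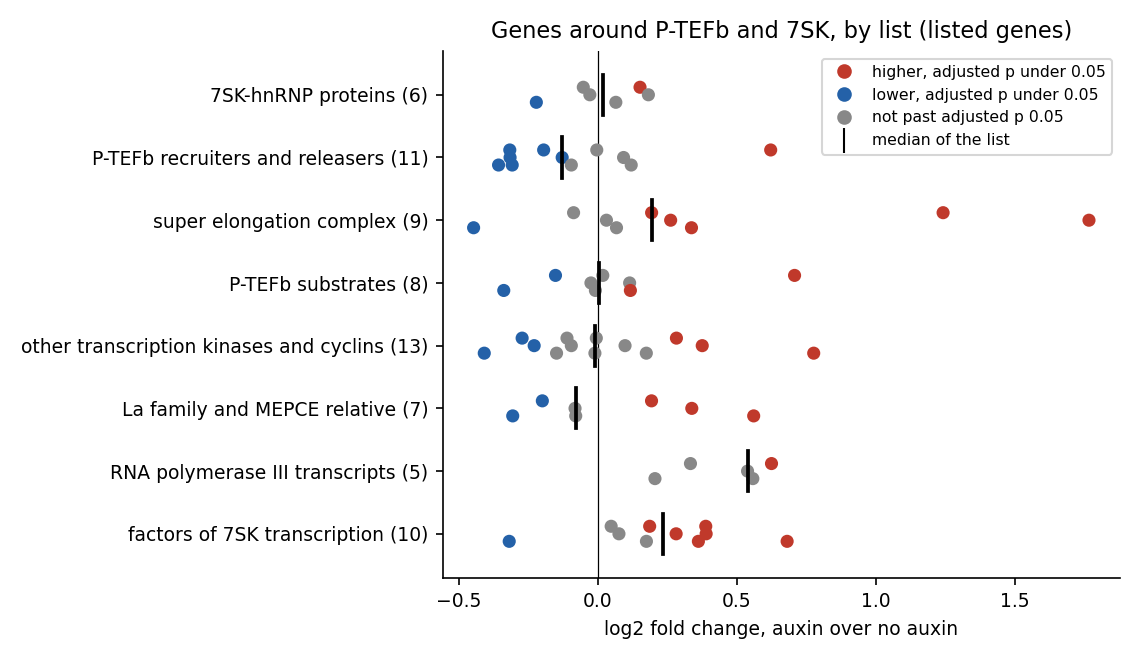
Log2 fold change of the 69 listed genes in 8 lists around P-TEFb and 7SK, 1 point per gene, coloured by call, with a bar at each list's median. The medians run from -0.13 for recruiters and releasers to 0.54 for RNA polymerase III transcripts, the latter being the value of RNU6-9 at a mean level of 26. The farthest points are EAF2 and ELL2 of the super elongation complex.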

How the data were processed

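Per the labels' protocols, Trizol-extracted and DNase-treated RNA went through removal of ribosomal RNA into a directional library kit. STAR 2.7.3a and DESeq2 are named, with builds hg38 and dm6, per the submitters' processing notes, which give no role for either build. The build dm6 is that of the fruit fly, and whether a fly spike-in set the scale of the deposited levels and fold changes is not known. The counting tool, annotation, model formula and scaling are not given in the sources used here. The authors deposited a table of their own comparison. Per the file headers it holds a mean level per gene (a normalized mean rounded to whole numbers, used as a score), a fold change (ratio), a log2 fold change, a p-value and its adjusted form, a transcript length and a log2 expression value, which lacks a number in 76 genes. A column headed Regulation is also present, and the calls given here do not use it. Depth per library is unknown, and no values per library were used. The planned test was therefore the authors' adjusted p at 0.05.

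Standard errors were derived by dividing each log2 fold change by the normal quantile that its p-value gives, assuming a two-sided Wald test. Group levels were derived from mean level and fold change for equal groups. Differences between genes were tested by a Wald test with Benjamini-Hochberg adjustment over 28 pairs. Named genes were the 8 genes, their nearest and overlapping listed neighbours, and per list the 2 largest changes past 0.05 with a mean level of at least 20. The genes, lists and motifs were chosen with earlier results of these data known. The alternatives were an adjusted p of 0.01, limits of 1.5 and 2-fold, a mean level of at least 100, centring on the median of such genes (-0.0302), a Wald test against 1.5-fold, adjustment over every gene, and protein-coding genes alone. Calculations were tested on simulated data with an independent error for each gene, so the independence assumed for pairs of genes was not tested. GENCODE 29 gave exons and overlaps. The software was pandas 2.3.3, scipy 1.17.1, matplotlib 3.10.9 and numpy 2.4.6 under Python 3.11.15.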

Additional observations from a re-analysis of the deposited data

How the results depend on the processing

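Each alternative reused the deposited log2 fold changes, and only centring, on -0.0302, shifted them. The smallest of the 8 in size was 0.09 (CCNT2), so no direction could change and the directions are no check. The calls of all 8 were the same at an adjusted p of 0.01, with a mean level of at least 100, after centring and with adjustment over every gene. They were also the same over protein-coding genes alone, where RN7SK has no value. With a limit of 1.5-fold, 2 genes rose (HEXIM1 and MEPCE) and 0 fell, and of the 69 listed genes in the lists 7 rose and 0 fell. At that limit 13.2% of all listed genes rose and 7.72% fell. With a limit of 2-fold, 1 gene rose (HEXIM1) and 0 fell, and 2 and 0 of the 69 genes in the lists. Of all listed genes 7.88% rose and 1.36% fell at 2-fold. The Wald test against 1.5-fold, from derived standard errors, gave 1 rise (HEXIM1) and 0 falls, and 2 and 0 in the lists. At an unadjusted p under 0.05 it gave 1 rise and 0 falls among the 8 genes, and 4 and 0 in the lists. The share of all listed genes that pass this test is not given here, so these counts cannot be set against a background. In the adjusted form of this Wald test HEXIM2 (log2 fold change 0.51), RN7SK (0.33), LARP7 (0.31) and CDK9 (-0.52) had an adjusted p of 1 and MEPCE (0.65) one of 0.843. The estimated changes of HEXIM2, RN7SK, LARP7 and CDK9 were smaller than 1.5-fold, and that of MEPCE, 1.57-fold, was only just above it. The intervals of HEXIM2 (fold change 1.22 to 1.66) and CDK9 (0.629 to 0.775) also held changes larger than 1.5-fold. For these genes the test therefore does not show a change below that limit. No paired analysis was possible because the table holds no values per library, and leaving out replicates was not run for the same reason.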
